A study of Mus musculus with 28 samples.

Results

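The 12 to 18 h step of wild-type spermatogonia compares WT cells collected 18 h after retinoic acid with WT cells collected 12 h after it, and holds 4 of the 28 RNA sequencing libraries of the series, 2 at each time. The members were chosen by genotype and time as labelled. All groups used here came from mice of a mixed C57BL/6 x 129s4/SvJae strain that were given WIN 18,446, an inhibitor of retinoic acid synthesis, over 7 days, so that spermatogonia stopped before differentiation. The WT groups carried a working Stra8 gene, and the KO groups lacked it; how the allele was made and the ages of the mice are not given in the sources used here. WT 18 h and WT 12 h mice were then injected with retinoic acid. The same step in KO cells (KO 18 h and KO 12 h) and the WT groups at 48 h and at 0 h, which had WIN 18,446 and no injection, also have 2 libraries each and are set beside it. Germ cells were sorted from the testis as positive for a PIWIL2-eGFP reporter, polyA RNA was sequenced on an Ion Proton, and the labels do not say that the 2 libraries of a group came from separate animals. Every p-value here therefore measures the spread between these libraries, which may be technical.

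Retinoic acid enters the nucleus, binds receptors of the RAR and RXR families and switches on genes that commit undifferentiated spermatogonia to differentiation, among them Stra8 and Kit. Cells also make cholesterol from acetyl-CoA through the mevalonate pathway. Its enzymes are controlled together by the transcription factor SREBP-2, the product of Srebf2, which is cut and released to the nucleus when sterols in the endoplasmic reticulum are low and is held back there by Insig proteins when sterols are high.

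The 4 WT libraries held 6515288 to 10135820 counted reads and the 4 KO libraries at these times 3629629 to 7329098. The 2 libraries of a group correlated across genes at 0.992 (WT 18 h) and 0.989 (WT 12 h) on the log2(CPM + 1) scale. Levels are given as CPM, reads of a gene scaled to a fixed total per library after TMM normalisation, which is not divided by gene length and so compares a gene between libraries, not genes with each other. Mitochondrial genes took 2.48 to 6.68% of the reads of the 4 WT libraries, the lower values in the libraries of the first count table at both times. Germ cell genes were high in all 4: Piwil2, the gene of the sort reporter, had 2852 and 1931 CPM at 18 h, against 2225 and 2079 CPM at 12 h, on unscaled totals. On the same totals, the 11 Leydig cell markers summed to 18.6 and 32.5 CPM at 18 h, against 23.1 and 37.5 CPM at 12 h. Most of that sum was Fdx1, a ferredoxin of steroid synthesis, and Star, the steroidogenic regulator, with 9.94 and 23.4 CPM for Fdx1 and 5.27 and 4.66 CPM for Star at 18 h, against 10.3 and 25.5 CPM and 8.98 and 5.68 CPM at 12 h; Insl3 and Hsd3b6 had no read in any of the 4 libraries. Sertoli cell markers summed to 58.3 and 62.4 CPM at 18 h, against 50.02 and 89.5 CPM at 12 h. In whole sorted populations, fewer cells of a type and less RNA per cell cannot be told apart.

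Stra8 itself, the gene knocked out in the KO mice, was high at both times of the WT step. It had 737 and 815 CPM at 18 h, against 722 and 1049 CPM at 12 h, and the values overlapped. The KO libraries had 16.9 and 22.0 CPM at 18 h, against 31.0 and 26.0 CPM at 12 h, so that each KO library lay far below each WT library. Before retinoic acid the KO libraries had 0.944 and 1.66 CPM, so that reads at Stra8 were also more frequent after it in KO cells. Kit, the receptor for stem cell factor and the usual mark of differentiating spermatogonia, had 691 and 963 CPM at 18 h, against 1412 and 999.5 CPM at 12 h. Both 18 h libraries of Kit lay below both 12 h libraries, but the log2 fold change of -0.54 ± 0.35 (SE, 95% interval -1.28 to 0.19) did not pass the test. Kit passed in the fit of the 4 libraries alone with the replicate block (adjusted p = 0.0403), and not with the block in the 14 WT libraries (adjusted p = 0.57). For Stra8 the log2 fold change was -0.19 ± 0.72 (interval -1.73 to 1.35). Both genes had been low before retinoic acid, with 7.52 and 15.8 CPM for Stra8 and 22.0 and 65.2 CPM for Kit at 0 h.

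Few genes passed the test across the 6 h, and most of those that did were lower at 18 h. Of 17519 genes tested, 49 (0.28%) passed an adjusted p of 0.05 in edgeR's quasi-likelihood test, with 44 (0.251%) lower and 5 (0.0285%) higher at 18 h. At an unadjusted p of 0.05 there were 1169. For comparison, 2249 genes (12.8%) passed in WT 48 h against WT 0 h in the same fit. In all 49, both 18 h libraries lay on the same side of both 12 h libraries, which was the case for 36.2% of all genes, 3343 downwards and 2994 upwards. With the library number as a block in a fit of the 14 WT libraries, 84 genes passed (0.494%), of which 74 were lower, and these held 46 of the 49. DESeq2 called 114, of which 18 were higher and 96 lower, and a fit of the 4 libraries alone with that block called 992, of which 359 were higher and 633 lower. Without WT 12 h replicate 1 the test called 10 genes, without WT 18 h replicate 1 it called 2 and without WT 18 h replicate 2 it called 17, so that the length of the list rested on each of these libraries.

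Genes of cholesterol synthesis made up the largest group of the lower genes. Of the 24 genes on the list, all 24 had a negative log2 fold change, 15 passed the test as lower and none as higher, against 0.251% of all genes called lower. The 32 gene lists were chosen with earlier results of these data known, so the shares of called members are a description. Their median log2 fold change was -1.45, while that of all genes tested was -0.01. In 23 of the 24, both 18 h libraries lay below both 12 h libraries, as in 3343 of the 17519 genes tested; the exception was Ebp, a sterol isomerase gene near 3 CPM. Without 1 library at a time, 2 to 11 members passed: 6 without WT 12 h replicate 1, 2 without WT 18 h replicate 1 and 7 without WT 18 h replicate 2. Mvd and Hmgcs1 passed in all 14 alternative fits.

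**Figure D1:**
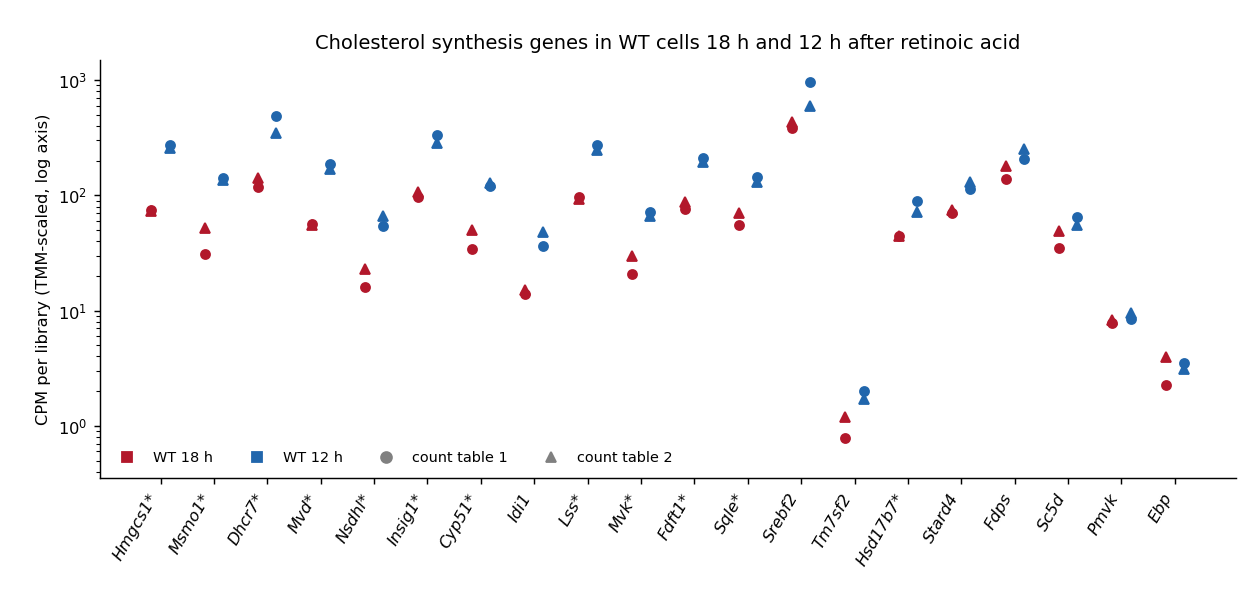
Level of 20 of the 24 cholesterol synthesis genes in the 4 WT libraries, in CPM on a log axis, 18 h (red) left of 12 h (blue), with circles for the first and triangles for the second count table. Genes run by log2 fold change, and stars mark the 12 past the adjusted p of 0.05; only for Ebp do the values of the 2 times overlap.

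The early mevalonate steps fell at 18 h. Hmgcs1, the synthase that makes HMG-CoA (chr13:119690379-119708260, plus strand, GRCm38), had 74.0 and 73.4 CPM at 18 h, against 276 and 256 CPM at 12 h. That was 3.61-fold lower, with a log2 fold change of -1.85 ± 0.20 and an adjusted p of 3.20e-05 by edgeR's quasi-likelihood test. Mvk, the mevalonate kinase, had 20.6 and 29.9 CPM at 18 h, against 72.0 and 66.0 CPM at 12 h (log2 fold change -1.45 ± 0.29). Mvd, which removes the carboxyl group of mevalonate diphosphate (chr8:122433601-122443422, minus strand), had 56.9 and 55.5 CPM at 18 h, against 186 and 170 CPM at 12 h. It was 3.17-fold lower, with the smallest adjusted p of the comparison, 2.59e-06. Not all steps passed. Pmvk, between Mvk and Mvd in the pathway, had 7.75 and 8.26 CPM at 18 h, against 8.40 and 9.58 CPM at 12 h. Idi1 and Fdps, which make and join the isoprenoid units, had log2 fold changes of -1.54 ± 0.54 and -0.54 ± 0.70, and neither passed; Idi1 passed with the replicate block (adjusted p = 0.0339).

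The steps that turn squalene into cholesterol moved the same way. Fdft1, the squalene synthase, had 76.5 and 88.1 CPM at 18 h, against 213 and 194 CPM at 12 h. Of its exon bases, 18.3% are shared with neighbouring genes, and counting without strand could mix their reads. Sqle, the epoxidase that follows, had 55.1 and 70.7 CPM at 18 h, against 146 and 131 CPM at 12 h. Lss, which closes the rings to lanosterol, was 2.74-fold lower, with 96.2 and 93.4 CPM at 18 h, against 272 and 247 CPM at 12 h. The demethylation and reduction enzymes after lanosterol followed. Cyp51, Msmo1, Nsdhl and Hsd17b7 had log2 fold changes of -1.56 ± 0.28, -1.75 ± 0.30, -1.64 ± 0.25 and -0.85 ± 0.17. Dhcr7, a reductase of the last steps, was 3.20-fold lower, with 119 and 141 CPM at 18 h, against 488 and 344 CPM at 12 h. Sc5d, Tm7sf2 and Ebp, of the same part of the pathway, did not pass.

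Genes that sense or carry sterols were lower in part. Insig1 retains the SREBP complex in the endoplasmic reticulum and is itself a target of SREBP. It had 96.0 and 107 CPM at 18 h, against 334 and 284 CPM at 12 h (log2 fold change -1.61 ± 0.24). Stard4, a sterol carrier, had 69.8 and 74.3 CPM at 18 h, against 114 and 131 CPM at 12 h, with an adjusted p of 0.0591. Srebf2 had 385 and 436 CPM at 18 h, against 966 and 599 CPM at 12 h, a log2 fold change of -0.93 ± 0.28 whose adjusted p was 0.285.

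The start sites of these genes are shown as background to the pathway. SREBP-2 acts with NF-Y, a factor that binds CCAAT boxes. Whether either factor had a part in the lower levels at 18 h was not tested. RefSeq windows of 300 bases on GRCm38.p6, from 250 before to 50 after a start, were at hand for 16 of the 24 genes. The letters CCAAT, on either strand (ATTGG on the reverse), occurred in 16 of their 19 windows, and in at least 1 window of each of the 16 genes. They occurred in 37.4% of all 32851 windows and in a window of 41.1% of all genes that had one, and in 7 of the 20 other lower genes. The letters TCACNCCAC, a form of the sterol regulatory element, occurred on either strand in 1 of the 16 genes, Hmgcs1, and in 1.44% of all genes with a window. The windows of the 4 listed genes with the smallest p that had one follow, 5′ to 3′ on the gene's strand, with matches to either motif in capitals; the 2 motifs did not overlap in them. Such a match describes the letters and is not a measured binding site. Mvd lies at chr8:122443373-122443672, Hmgcs1 at chr13:119690101-119690400, Insig1 at chr5:28071162-28071461 and Nsdhl at chrX:72918271-72918570.
Mvd: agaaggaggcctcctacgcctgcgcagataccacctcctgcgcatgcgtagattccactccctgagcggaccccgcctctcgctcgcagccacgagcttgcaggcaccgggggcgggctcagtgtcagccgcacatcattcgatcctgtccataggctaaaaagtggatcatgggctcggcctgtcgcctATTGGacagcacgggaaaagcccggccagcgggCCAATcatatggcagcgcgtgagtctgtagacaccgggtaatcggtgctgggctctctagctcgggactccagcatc
Hmgcs1: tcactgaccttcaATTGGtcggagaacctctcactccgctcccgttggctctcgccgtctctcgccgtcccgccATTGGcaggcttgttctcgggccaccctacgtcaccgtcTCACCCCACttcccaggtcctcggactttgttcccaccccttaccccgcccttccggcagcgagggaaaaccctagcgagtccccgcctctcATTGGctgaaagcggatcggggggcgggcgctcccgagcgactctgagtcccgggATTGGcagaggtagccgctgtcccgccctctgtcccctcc
Insig1: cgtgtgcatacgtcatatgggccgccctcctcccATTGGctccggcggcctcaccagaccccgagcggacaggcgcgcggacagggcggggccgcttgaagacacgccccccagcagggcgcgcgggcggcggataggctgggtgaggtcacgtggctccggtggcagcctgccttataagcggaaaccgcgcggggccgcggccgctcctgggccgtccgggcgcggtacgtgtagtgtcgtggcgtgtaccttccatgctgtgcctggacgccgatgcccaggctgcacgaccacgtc
Nsdhl: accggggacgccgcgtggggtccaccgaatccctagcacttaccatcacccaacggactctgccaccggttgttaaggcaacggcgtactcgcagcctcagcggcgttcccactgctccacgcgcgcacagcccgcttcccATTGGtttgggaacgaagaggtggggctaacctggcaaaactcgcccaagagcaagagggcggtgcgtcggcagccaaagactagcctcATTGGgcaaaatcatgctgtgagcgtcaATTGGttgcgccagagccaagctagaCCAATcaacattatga

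Over the whole course the cholesterol genes peaked at 12 h, and at 18 h their sum was below that at 0 h in both WT libraries. Summed over the 24 genes, the WT libraries had 2181 and 2476 CPM at 0 h, 5402 and 4248 CPM at 12 h, 1785 and 2077 CPM at 18 h and 2452 and 2412 CPM at 48 h. From 72 to 120 h the sums were 1703 to 2191 CPM. The highest WT group mean of the 7 times was at 12 h for 22 of the 24 genes (91.7%), against 14.8% of all genes tested; the choice of this list with the time course known means that the share is a description. Hmgcs1, for example, averaged 125 CPM at 0 h, 266 CPM at 12 h, 73.7 CPM at 18 h and 118 CPM at 48 h. Lss was the 1 gene of the 44 that passed as higher in WT 48 h against WT 0 h, with means of 148 CPM at 48 h and 90.9 CPM at 0 h.

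**Figure D2:**
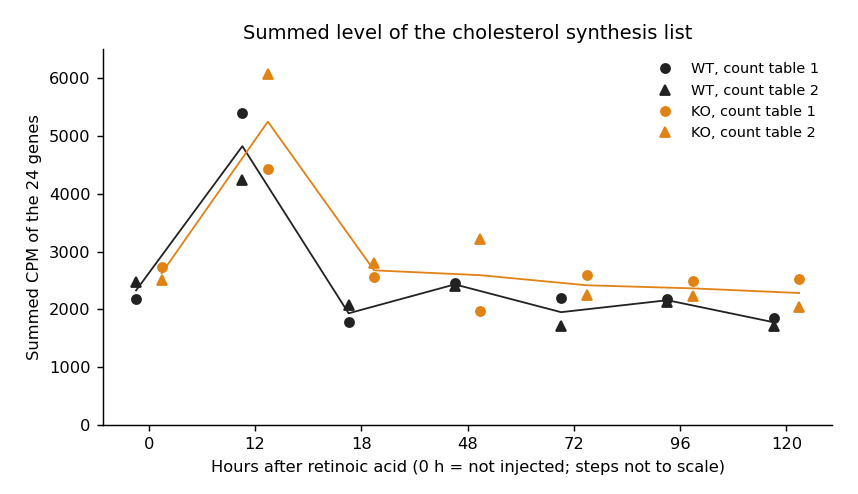
Summed CPM of the 24 cholesterol synthesis genes in each of the 28 libraries against hours after retinoic acid, WT in black and KO in orange, with lines through the group means. The WT libraries at 12 h, at 5402 and 4248 CPM, and the KO libraries at 12 h, at 4430 and 6069 CPM, lie above all libraries of the other times.

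Fatty acid genes fell in part. Scd2 and Scd1, the desaturases that make oleic acid from stearic acid, were 4.25-fold and 3.48-fold lower. Scd2 had 38.8 and 51.8 CPM at 18 h, against 225 and 160 CPM at 12 h (log2 fold change -2.09 ± 0.31, adjusted p = 0.00269). Scd1 had 13.4 and 16.8 CPM at 18 h, against 58.1 and 47.0 CPM at 12 h. Aacs, which turns acetoacetate into acetoacetyl-CoA for lipid synthesis, had 78.3 and 59.2 CPM at 18 h, against 155 and 123 CPM at 12 h. A list of 22 fatty acid synthesis genes was written after these values were seen. Of the 21 tested, 3 passed as lower (Scd1, Scd2 and Aacs), against 0.251% of all genes called lower. These 3 calls were known beforehand, so their number is a description. Of the 21, 18 had a negative log2 fold change, and the median of the list was -0.51. Fasn, the fatty acid synthase itself, had a log2 fold change of -0.46 ± 0.22, Acly -0.08 ± 0.14 and Srebf1 -0.43 ± 0.22, and none of these passed. With the replicate block Fads2, a desaturase of polyunsaturated fatty acids, and Acacb, an acetyl-CoA carboxylase, passed as lower too (adjusted p = 0.0393 and 0.0479). Among the gene models called lower, counted but not otherwise described, was 0610007P14Rik, which the RefSeq table names Erg28 and which was singled out after its values were seen. In yeast, Erg28 holds sterol enzymes together; it had 58.6 and 75.2 CPM at 18 h, against 125 and 122 CPM at 12 h.

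The retinoid list had 2 of its 21 tested members called lower, against 0.251% of all genes. It had 1 without WT 12 h replicate 2 and none without WT 12 h replicate 1, without WT 18 h replicate 1 or with only the 4 libraries compared. Stra6, the membrane receptor that takes up retinol from its carrier protein (chr9:58063788-58153996, plus strand), showed the largest fold change among the called genes. It had 0.883 and 2.03 CPM at 18 h, against 23.5 and 10.7 CPM at 12 h, an 11.9-fold lower level (log2 fold change -3.57 ± 0.60, adjusted p = 0.00506). Stra6 was also near zero outside 12 h, with WT means of 1.15 CPM at 0 h and 1.64 CPM at 48 h. Rdh11, a retinal reductase, had 5.89 and 10.9 CPM at 18 h, against 27.2 and 30.7 CPM at 12 h. Its WT mean had been 7.36 CPM at 0 h. Cyp26b1, which degrades retinoic acid, had 15.9 and 17.7 CPM at 18 h, against 44.6 and 37.2 CPM at 12 h. Its log2 fold change of -1.28 ± 0.33 did not pass (adjusted p = 0.109), but passed with the replicate block (adjusted p = 0.0203). Cyp26a1, the other degrading enzyme, had 10.3 and 31.5 CPM at 18 h, against 26.9 and 45.7 CPM at 12 h, and Rarb, a receptor gene that retinoic acid induces, had 4.91 and 8.86 CPM at 18 h, against 10.1 and 11.7 CPM at 12 h; neither passed. The other receptor genes did not pass either: Rarg had a log2 fold change of -0.54 ± 0.18, Rara -0.42 ± 0.26, Rxrb 0.48 ± 0.19 and Rxra 0.07 ± 0.19. Crabp1, a retinoic acid binding protein, had 123 and 125 CPM at 18 h, against 58.9 and 90.1 CPM at 12 h, without passing.

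**Figure D3:**
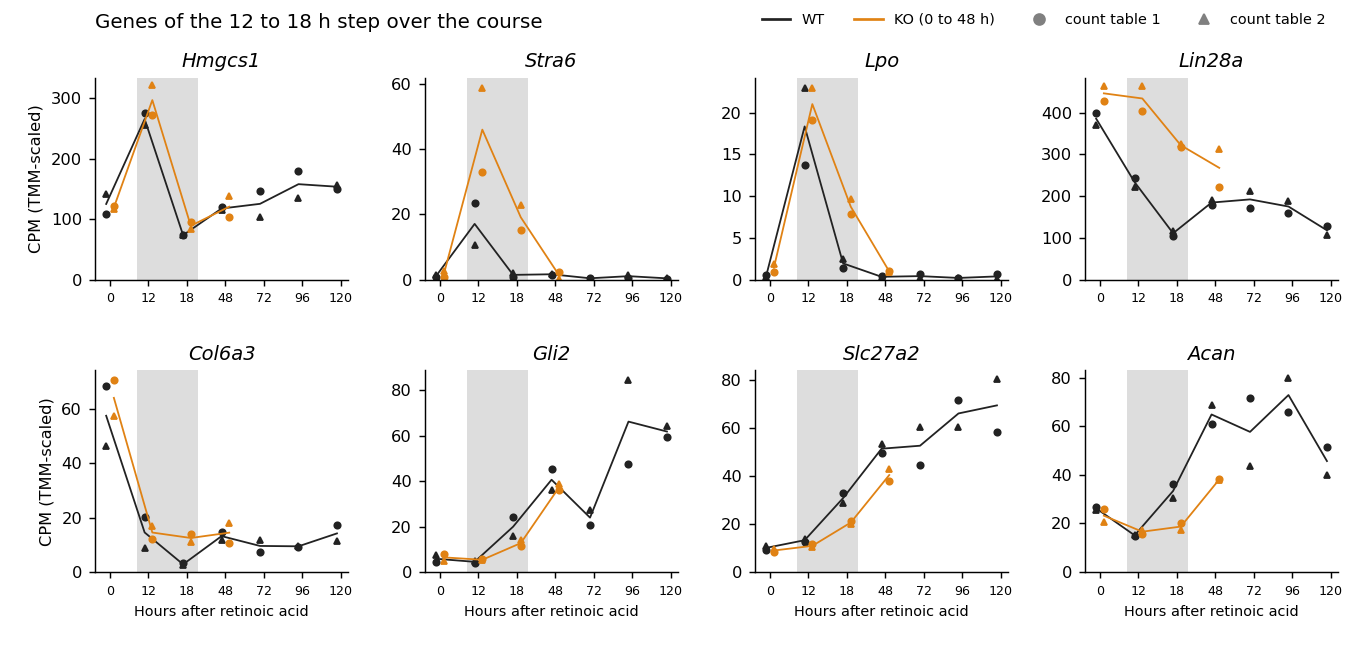
CPM of 8 genes past the threshold in the WT step, against hours after retinoic acid, with a point per library and lines through the group means, WT in black over the 7 times and KO in orange to 48 h; the grey band marks 12 and 18 h. Hmgcs1, Stra6 and Lpo have their highest WT values at 12 h, Lin28a and Col6a3 are highest at 0 h, and Gli2 and Slc27a2 are higher at 48 h than at 18 h.

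Markers of spermatogonial state gave 1 call each. Lin28a, an RNA-binding protein that blocks let-7 and marks undifferentiated cells (chr4:134003330-134018841, minus strand), fell in the step, as 1 of 31 undifferentiated markers, against 0.251% of all genes called lower. It did not pass without WT 12 h replicate 1, WT 18 h replicate 1 or WT 18 h replicate 2, and with the replicate block Dusp6, also on that list, passed as higher. Lin28a had 105 and 117 CPM at 18 h, against 244 and 223 CPM at 12 h (log2 fold change -1.07 ± 0.18, adjusted p = 0.00506). Its WT mean had been 386 CPM at 0 h and was 185 CPM at 48 h. Other members went both ways without passing: Gfra1, the GDNF co-receptor, had a log2 fold change of -0.87 ± 0.28 and Upp1 -0.85 ± 0.26, while Etv5, a GDNF-responsive factor, had 1.01 ± 0.39 and Neurog3 0.77 ± 0.33. Sall4, a zinc finger factor of germ cells needed for differentiation, was the 1 called among 22 differentiating markers, and did not pass without WT 12 h replicate 1, WT 18 h replicate 1 or WT 18 h replicate 2. It had 332 and 262 CPM at 18 h, against 874 and 598 CPM at 12 h, and its WT mean was 369 CPM at 0 h and 213 CPM at 48 h. Ccnd2, the D-type cyclin of differentiating spermatogonia, had 469 and 513 CPM at 18 h, against 940 and 873 CPM at 12 h, a separation that did not pass (adjusted p = 0.133). Dnmt3b, a de novo DNA methyltransferase, had 346 and 269 CPM at 18 h, against 213 and 221 CPM at 12 h, and did not pass (adjusted p = 0.35).

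Among the other lower genes, some peaked at 12 h and others had been higher still at 0 h. Of the 49 called genes, 34 had a 12 h mean above both the 0 h and the 18 h mean, 10 declined from 0 h over 12 h to 18 h, 4 had their low point at 12 h and 1 increased over the 3 times. The calls themselves rest on the difference between 12 and 18 h, so these shapes are a description. No minimum difference was required, and the share of each shape over all genes was not counted. Lpo, which encodes lactoperoxidase, belonged to the first kind, with 1.37 and 2.51 CPM at 18 h, against 13.7 and 23.0 CPM at 12 h, and a WT mean of 0.448 CPM at 0 h. Coro2b, an actin-binding coronin, had 6.67 and 5.98 CPM at 18 h, against 34.3 and 40.6 CPM at 12 h, with 1.34 CPM at 0 h. Pgbd5, derived from a transposase, had 23.8 and 22.6 CPM at 18 h, against 123 and 93.4 CPM at 12 h, with 14.7 CPM at 0 h. At 48 h the WT means of Lpo, Coro2b and Pgbd5 were 0.341, 3.11 and 11.6 CPM, below both 12 h libraries. Dtx1, a regulator of Notch signalling, Slc1a5, a glutamine transporter, and Map3k13, a kinase, had the same shape, with log2 fold changes of -2.35 ± 0.46, -1.53 ± 0.26 and -1.73 ± 0.36. Ccdc42, a coiled-coil gene required for sperm tails, had 1.67 and 2.03 CPM at 18 h, against 15.3 and 10.3 CPM at 12 h. Oasl2, an interferon-induced gene, had 12.9 and 16.3 CPM at 18 h, against 37.9 and 38.9 CPM at 12 h. Pacsin1, a membrane-bending protein of vesicle uptake, had 10.7 and 9.34 CPM at 18 h, against 34.8 and 26.3 CPM at 12 h. Oasl2 and Pacsin1 had been higher still at 0 h, with WT means of 98.7 and 65.0 CPM. Gbp6, Fignl2, Drp2, Fbxo40, Adcy10 and Rhog passed as lower too, with log2 fold changes of -2.47 ± 0.46, -2.04 ± 0.43, -1.85 ± 0.39, -1.74 ± 0.36, -1.54 ± 0.33 and -1.38 ± 0.30. Fbxo40 and Adcy10 had also been higher at 0 h than at 12 h, with WT means of 54.4 and 68.4 CPM at 0 h. Of the exon bases of Gbp6, 29.0% are shared with neighbouring genes. Adcy10, a soluble adenylyl cyclase, and Rhog, a small GTPase, lost the call with the replicate block (adjusted p = 0.0596 and 0.0808).

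The declining genes included Smad3, an effector of TGF-beta signalling, with 29.1 and 29.3 CPM at 18 h, against 67.8 and 53.9 CPM at 12 h, and a WT mean of 108 CPM at 0 h. Glis3, a zinc finger factor needed to form undifferentiated spermatogonia, had 60.1 and 45.2 CPM at 18 h, against 153 and 107 CPM at 12 h, and 332 CPM at 0 h. Col6a3, a collagen VI chain, had 3.14 and 2.51 CPM at 18 h, against 20.2 and 8.96 CPM at 12 h, and 57.6 CPM at 0 h. All 3 were also lower in WT 48 h than in WT 0 h past the threshold, as were 14 of the 44 lower genes (6.68% of all genes), and 29 were not called between those times. The decline did not continue past 18 h: the WT means of Smad3, Glis3 and Col6a3 at 48 h were 43.3, 90.4 and 13.2 CPM. Each of these lay above both 18 h libraries of its gene. The 14 tested markers of myoid and stromal cells, some of them collagens, all had negative log2 fold changes (median -0.57) and none passed. Both 18 h libraries lay below both 12 h libraries for 6 of them and above for 0. In KO their median was 0.07, with 2 members separated downwards and 2 upwards. In WT, all 16 on the list summed to 157 and 207 CPM at 18 h, against 257 and 241 CPM at 12 h, on unscaled totals. Single members of that list lay between Lum, with 0.0994 and 0.123 CPM at 18 h, against 0.0987 and 0.153 CPM at 12 h, and Col4a1, with 67.7 CPM in both libraries at 18 h, against 119 and 87.6 CPM at 12 h. Pdgfrb, a receptor of mural and stromal cells, had 4.18 and 3.56 CPM at 18 h, against 14.1 and 9.06 CPM at 12 h. Their part in the value of Col6a3 was not tested.

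Only 5 genes passed as higher at 18 h, with 2 without WT 12 h replicate 2 or WT 18 h replicate 2 and none without WT 12 h replicate 1 or WT 18 h replicate 1. Gli2, a transcription factor of the Hedgehog pathway (chr1:118834132-119053619, minus strand), had 24.05 and 15.8 CPM at 18 h, against 4.0 and 4.94 CPM at 12 h, a 4.49-fold higher level (log2 fold change 2.17 ± 0.37, adjusted p = 0.00506). It was at 40.6 CPM on average at 48 h. Of the 5, 4 also passed as higher in WT 48 h against WT 0 h, as 6.15% of all genes did. Slc27a2, a very long chain acyl-CoA synthetase and fatty acid transporter, had 32.9 and 28.7 CPM at 18 h, against 12.6 and 13.9 CPM at 12 h (1.22 ± 0.23), and averaged 51.4 CPM at 48 h and 69.4 CPM at 120 h. Acan, which encodes the proteoglycan aggrecan, had 36.4 and 30.4 CPM at 18 h, against 14.8 and 15.4 CPM at 12 h. Klhdc2, a substrate receptor of a ubiquitin ligase, had 54.0 and 57.7 CPM at 18 h, against 30.7 and 34.8 CPM at 12 h; it lost the call with the replicate block (adjusted p = 0.0644). Chit1, a chitinase under 5 CPM in both groups, had 3.83 and 3.59 CPM at 18 h, against 0.3 and 0.463 CPM at 12 h. The next genes by p, which did not pass, were Nrcam, Dusp6, Ndrg1 and Aifm3, with adjusted p-values of 0.052 to 0.0708. Dusp6, a phosphatase that ERK signalling induces, had 18.8 and 14.5 CPM at 18 h, against 6.10 and 7.57 CPM at 12 h. With the replicate block, Nrcam, Aifm3 and Dusp6 passed (adjusted p = 0.0442, 0.0388 and 0.0479).

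The remaining lists held no called gene. The 49 DNA replication genes had a median log2 fold change of -0.25, and 42 of them were negative, against 51.0% of all genes tested. Of the 49, 9 had an unadjusted p under 0.05, as did 1169 of the 17519 genes tested. Chaf1b (-0.95 ± 0.23), Cdc6 (-0.80 ± 0.21), Ccne1 (-0.72 ± 0.22) and Rrm2 (-0.81 ± 0.27) led by p. Both 18 h libraries lay below both 12 h libraries for 29 of these 49 genes and above for 2. Among the 17519 genes tested, this held for 3343 downwards and 2994 upwards. In KO it held for 27 of the 49 downwards and 1 upwards, against 3400 and 3226 of all genes. The 46 mitosis genes had a median of 0.02. The 44 nuclear genes of oxidative phosphorylation had a median of 0.23, with 40 positive and none at an unadjusted p under 0.05. The 29 homeobox and Hox genes tested had a median of -0.80, with 24 negative. Both 18 h libraries lay below both 12 h libraries for 18 of these 29 genes and above for 0. In KO this held for 17 downwards and 0 upwards, with a median of -0.68. Most were low, as Hoxb3 with 0.294 and 1.68 CPM in WT at 18 h, against 3.60 and 3.24 CPM at 12 h. The 36 meiotic prophase genes had a median of -0.18, and the 23 circadian clock genes one of -0.14 with Bhlhe41 (0.75 ± 0.27) and Dbp (-0.68 ± 0.32) leading. Among stress genes, Hspa5, the main chaperone of the endoplasmic reticulum, had 408 and 798 CPM at 18 h, against 1056 and 1195 CPM at 12 h, and passed with the replicate block (adjusted p = 0.0278) but not without it (adjusted p = 0.185).

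**Figure D4:**
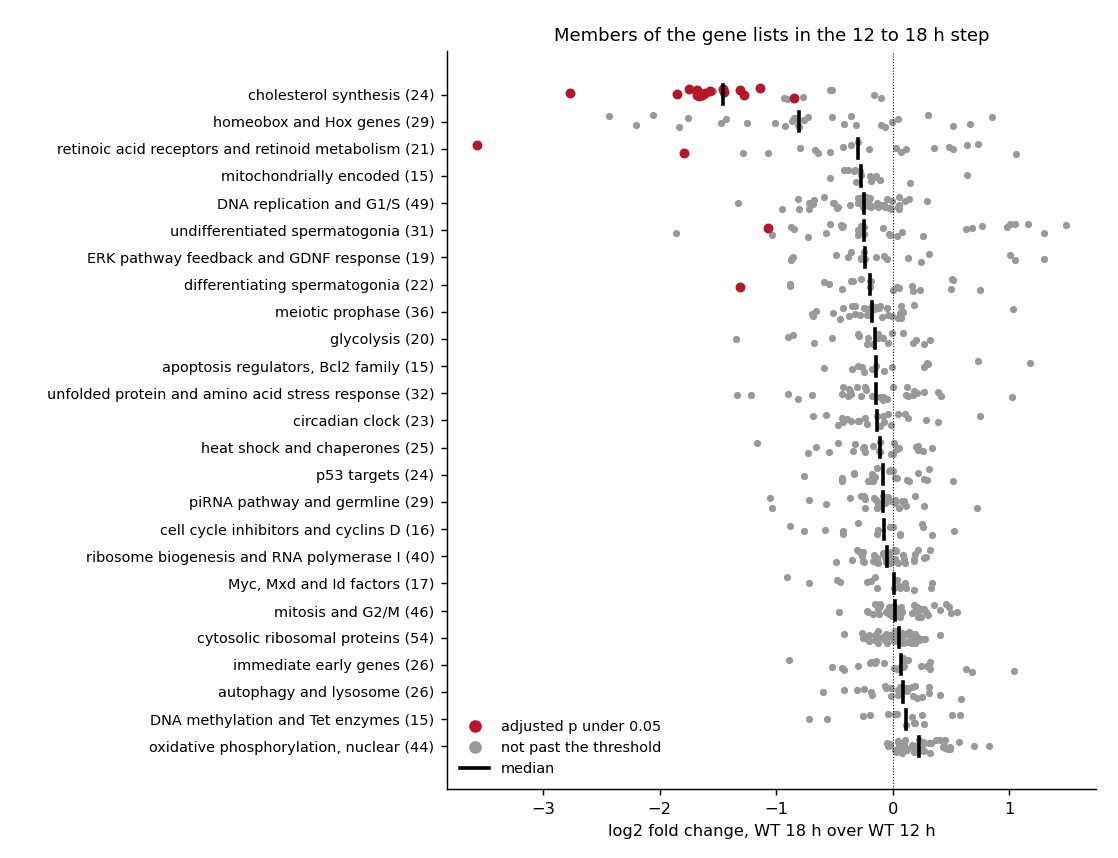
Log2 fold change of WT 18 h over WT 12 h for each tested member of 25 gene lists (number tested in brackets), red where the adjusted p was under 0.05, with a bar at each list's median. The cholesterol list has its median at -1.45 and 15 red points; the other lists hold 4 red points in all, Stra6, Rdh11, Lin28a and Sall4.

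The same step in KO cells had its own 4 libraries. They enter the WT comparison through the expression filter, the TMM scaling and the spread shared by all groups. So do the KO libraries of the other times. Of these, the second-table libraries at 72, 96 and 120 h held only 1078460, 913055 and 1030025 counted reads. With the 14 WT libraries only, 19 genes passed in WT. All 44 genes called lower in WT also had a negative log2 fold change in KO, and in 43 of them both KO 18 h libraries lay below both KO 12 h libraries; the exception was Col6a3. Among all genes, the KO libraries of the 2 times were separated in either direction for 37.8%, 3400 of them downwards and 3226 upwards. All 5 higher genes were positive in KO, 4 of them with separated libraries, Acan being the exception. The median log2 fold change of the 44 was -1.67 in WT, which chose them, and -1.05 in KO. In KO, 7 genes (0.04%) passed, all lower: Aacs, Hmgcs1, Insig1, Lss, Mvd, Mvk and Stard4. Of these, 6 (85.7%) also passed in WT, and they were 12.2% of the 49 WT genes. Without 1 KO library at a time the KO count was 2 to 6, with 2 left without KO 12 h replicate 2, KO 18 h replicate 1 or KO 18 h replicate 2.

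The cholesterol list fell in KO cells as well, with 6 of 24 members called lower, against 0.04% of all genes. Its median log2 fold change in KO was -1.13, while that of all genes tested was 0. Both KO 18 h libraries lay below both KO 12 h libraries for 21 of the 24 and above for 1. Among the 17519 genes tested, this held for 3400 downwards and 3226 upwards. Hmgcs1 had a log2 fold change of -1.85 ± 0.20 in WT and -1.74 ± 0.20 in KO, and Mvd had -1.66 ± 0.15 in WT and -1.70 ± 0.16 in KO. The difference of the steps, WT minus KO, was -0.12 for Hmgcs1 (95% interval -0.69 to 0.46) and 0.04 for Mvd (interval -0.40 to 0.48). Its median over the 24 genes was -0.17, and other members differed more, to both sides. Pmvk had 1.12 (interval 0.22 to 2.03), while Dhcr7 had -0.77 (interval -1.59 to 0.04) and Nsdhl -0.68 (interval -1.40 to 0.03). Stra6 had 0.883 and 2.03 CPM in WT 18 h, against 23.5 and 10.7 CPM in WT 12 h. In KO it had 15.3 and 22.8 CPM at 18 h, against 33.1 and 58.8 CPM at 12 h. Its difference of the steps was -2.31 (interval -3.91 to -0.70). No gene passed the test of this difference after adjustment, in edgeR's quasi-likelihood test or in DESeq2, and 198 had an unadjusted p under 0.05. The 4 genes with the smallest p were Col6a3, Lamb1, Alpl and Mobp, all with an adjusted p of 1.00. Lamb1, a laminin chain, had 257 and 305 CPM in WT 18 h, against 697 and 454 CPM in WT 12 h, and 1365 and 1614 CPM in KO 18 h, against 1108 and 1445 CPM in KO 12 h; its WT step passed with the replicate block (adjusted p = 0.0203) and not without it (adjusted p = 0.0708). Col6a3 had 14.1 and 10.98 CPM in KO 18 h, against 12.0 and 17.1 CPM in KO 12 h, which overlapped.

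**Figure D5:**
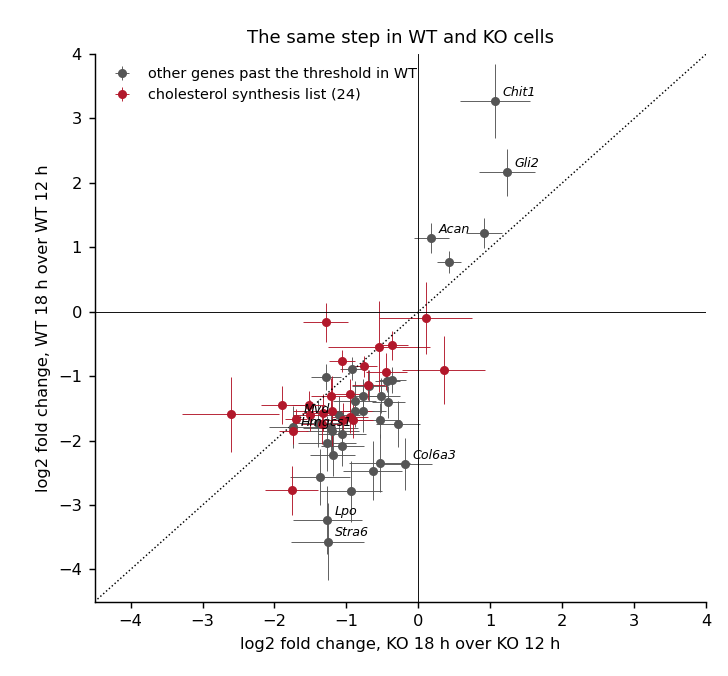
Log2 fold change of 18 h over 12 h in WT (vertical) against KO (horizontal) for the 24 cholesterol synthesis genes (red) and the other genes past the threshold in WT (grey), with standard errors as bars and a dotted line of equal change. Mvd and Hmgcs1 lie close to the line, while Stra6, Lpo and Col6a3 lie below it; no gene passed the test of the difference.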

How the data were processed

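Sorted PIWIL2-eGFP germ cells were profiled by polyA RNA sequencing in 28 libraries, 2 in each of 14 groups. The tools named in the submitters' processing notes are TopHat, Bowtie and Cufflinks, with the mouse build mm10; no source used here gives versions, the counting program or whether strand was used. Read counts by gene symbol were deposited by the authors as 2 tables, each holding 1 library of every group, and the table gives the replicate its number. Tables that the authors named as FPKM were not used. Their KO columns carry other replicate numbers than the count tables, so the KO replicate numbers, and the replicate block within KO, are uncertain. Of 43280 features, 27 whose names had turned into dates were dropped, and a gene with no read in a library was taken as below 3 counts (0.296 to 0.46 CPM in the 4 WT libraries).

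The test was the robust quasi-likelihood test of edgeR 4.0.16 (R 4.3.3) on these counts, fitted with 14 group means to all 28 libraries after TMM scaling and filterByExpr, which kept 17519 genes. Each comparison was adjusted by Benjamini-Hochberg and called at 0.05. Intervals are 95% intervals of the fit. In simulated counts of this comparison, 22% of 100 genes changed 2-fold and 64% of 100 changed 4-fold were recovered, with 2 false calls among 17519 genes. The counts were drawn from the fit's own means and spread, with no pairing of libraries. The number of false calls therefore does not test spread that the fit misses. The changed genes were drawn at random from all genes tested, those with low counts included. Alternatives were DESeq2 1.42.0, other scaling and filters, fewer libraries, a replicate block and leaving out each library. The replicate number pairs the WT libraries: deviations from the group means of same-numbered libraries correlated at 0.258 to 0.517 over the 21 pairs of times. In KO they ranged from -0.138 to 0.567 and were not taken as paired.

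The 32 gene lists, the comparison and the genes named were chosen with earlier results of these data known. Named were Stra8 and Kit, up to 15 called genes each way with the largest fold changes, 5 CPM in either group and separated libraries, the next genes by p up to 8 where fewer passed, up to 4 members per list by p, all retinoid and clock genes, and the 4 smallest p for the genotype difference; other called genes were named after their values were seen. Gene positions are from GENCODE M21 (16448 of the 17519 tested genes matched by name) and promoter windows from RefSeq. Some members of the cholesterol list are included in its counts, sums and medians and are not reported here singly.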

Additional observations from a re-analysis of the deposited data

How the results depend on the processing

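Of 45 called genes followed through 14 alternative fits, all 45 kept their sign in each, and 2, Mvd and Hmgcs1, passed the threshold in each (largest adjusted p = 0.0255 for Mvd and 0.0254 for Hmgcs1). For WT 18 h against WT 12 h, 118 genes passed with no expression filter, 114 with DESeq2, 19 with the 14 WT libraries only, 84 with these and the replicate block, 8 with the 4 libraries compared and 992 with these 4 and the replicate block. Leaving out each WT library gave 2 to 36. Of the cholesterol list, 9 members were lower with the 14 WT libraries only, 4 with the 4 libraries compared and 2 to 11 without each library. For KO 18 h against KO 12 h, 33 passed with no filter, 15 with the replicate block within genotype, 21 with DESeq2, 55 with the 4 KO libraries compared and 2 to 6 without each library. The genotype difference had 1 gene with no filter and 0 in its other alternatives, the replicate block included. WT 48 h against WT 0 h had 1443 with the 14 WT libraries only and 772 to 1663 without each library. Stra8 in WT 18 h against WT 12 h ranged from -0.4356 to 0.0886 in log2 fold change without each library, the positive value without WT 12 h replicate 2. The causes were not tested. Scaling moved the median of all genes from -0.01 to 0.03 at most. With the replicate block, Adcy10, Rhog and Klhdc2 lost their calls. With 2 libraries a side, changes of 2-fold were mostly missed in the simulation.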
